A study of Mus musculus with 12 samples.

Results

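The comparison described here sets Tcf3-/- mouse embryonic stem cells against Tcf3+/+ cells (wild type) in control medium. Tcf3 is the older name of Tcf7l1, which is the symbol used below. The arrays were taken by their titles, 3 of knockout and 3 of wild-type cells, which makes 6 of the 12 arrays of the series. The other 6 hold the same genotypes after 24 h with 50 ng/ml Wnt3a. Both genotypes grew on gelatin without feeder cells, in Knockout-DMEM with 15% serum and 1000 U/ml Lif, and no other allele or agent is named. The labels give neither the parental line nor the number of clones behind a genotype, so the effect of losing the gene and any further difference between the cells cannot be told apart. Nothing says that the 3 replicates were separate cultures. The p-values therefore cover array-to-array spread alone, and that may be technical.

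Tcf7l1 belongs to the Tcf/Lef family, whose members bind DNA through an HMG box. In embryonic stem cells it is known mainly as a repressor that sits with Oct4, Sox2 and Nanog on regulatory regions of pluripotency genes and recruits Groucho/Tle corepressors. Wnt signalling stabilises beta-catenin, which relieves this repression and lowers Tcf7l1 itself. Cells without it are known to keep self-renewing under conditions in which wild-type cells differentiate.

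Of the 45101 probe sets on each array, 34945 carried a single gene symbol and covered 18193 genes. Each gene was read from its brightest probe set, and 13811 genes had at least 3 of the 12 arrays above the 40th percentile of all values, a log2 intensity of 5.56. All 13811 were tested with limma, with Benjamini-Hochberg adjustment at 0.05, and a gene is said to have risen, fallen or changed only if it passed. Values are log2 intensities on arrays 1, 2 and 3 of a group, changes are knockout minus wild type on the log2 scale with the standard error (SE) of the fit, and n = 3 arrays per group throughout. Where a group mean lay under 5.56, each array of that group under 5.56 was raised to that level, the arrays above it kept their values, and the fold is given as at least that large. The arrays hold RNA of whole cultures, so fewer cells that express a gene and less RNA per cell cannot be told apart. The number of arrays limits the precision.

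The arrays of the 2 genotypes parted widely. In a principal component analysis of the 6 arrays the first component held 88.0% of the variance, with wild type at -39.4, -24.9 and -32.8 and knockout between 31.6 and 33.8. Wild-type array 2 lay nearest to the knockout arrays there, and it was the wild-type array closest to the knockout in 736 of the 916 genes that changed at least 2-fold. Among array controls, the actin 3' probe set exceeded the 5' one by 0.176 to 0.239 in wild type and 0.307 to 0.414 in knockout, without overlap. The same quantity for Gapdh overlapped (-0.010 to 0.037 and -0.008 to 0.041), and so did 18S ribosomal RNA (8.51 to 9.08 and 9.03 to 9.36). The part of the actin difference in any result below was not tested.

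The targeted gene was lower on every knockout array but was still bright. The first Tcf7l1 probe set read 10.77, 10.90 and 10.87 in wild type and 9.58, 9.37 and 9.45 in knockout cells. The second read 10.74, 10.82 and 10.84 against 9.19, 8.86 and 9.06. In neither probe set did the groups overlap. Which exons were deleted is not stated in the labels, and probes that lie outside them would check nothing. Genes beside Tcf7l1 on chromosome 6 were read in the order of the RefSeq annotation. Of the 5 tested genes on either side, the actin-capping gene Capg (-0.89) and Kcmf1 (-0.31) fell, and the retinol saturase gene Retsat (0.80) and Suclg1 (0.18) rose. Suclg1 passed narrowly (limma adjusted p = 0.0493) and its call was lost in 10 alternatives (adjusted p 0.0539 to 0.174). Kcmf1 did not pass with the mean of all its probe sets (-0.16, adjusted p = 0.152). The others did not pass, among them the direct neighbour Tgoln1 (0.08) and Tmsb10 (-0.02). With the mean of all its probe sets Tgoln1 passed as higher (0.29, limma adjusted p = 0.00201). It also passed as higher in Wnt3a medium (0.25, limma adjusted p = 0.0103).

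Expression changed in a large part of the transcriptome. Of the 13811 genes, 2743 rose (19.9%) and 3081 fell (22.3%), together 42.2%. At least 2-fold changes were called for 331 risen (2.40%) and 585 fallen genes (4.24%), and at least 8-fold changes for 5 and 33. In 26.0% of tested genes all 3 knockout arrays lay above all wild-type arrays, and in 28.1% they lay below. The median change over all tested genes was 0.01 and the median SE 0.09.

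**Figure D1:**
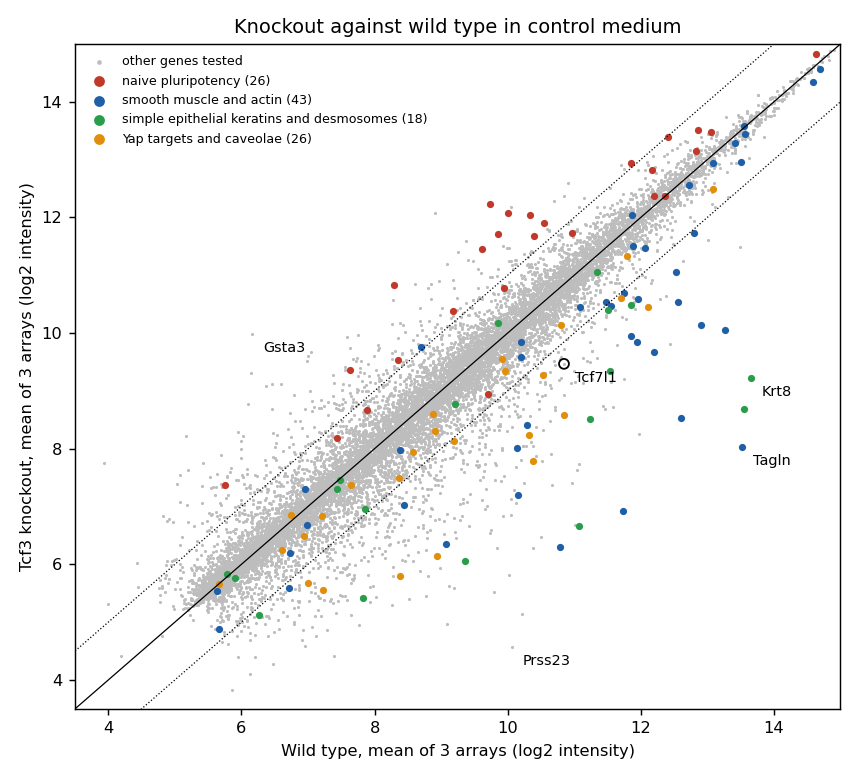
Mean log2 intensity of each tested gene in wild-type (horizontal axis) and Tcf3 knockout cells (vertical axis) in control medium, 3 arrays each; the solid line marks equal values and the dotted lines a 2-fold difference. Naive pluripotency genes (red) sit mostly above the line, and actin and smooth muscle (blue), keratin and desmosome (green) and Yap-list genes (orange) sit mostly below it, with Tagln, Krt8 and Prss23 far below.

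Among the largest rises was that of Gsta3, a glutathione transferase gene, which read 6.13, 6.23 and 6.12 in wild type and 10.20, 9.76 and 10.00 in knockout cells. It was 14.2-fold higher (3.82 ± 0.21 SE, limma adjusted p = 2.79e-07). Timm8a2, a gene of the oocyte list, went from 5.07, 5.28 and 5.15 to 8.25, 8.14 and 8.26, at least 6.31-fold. Among the other large rises were the blood-lineage genes described below, the T-box gene Tbx3, the Y-linked ubiquitin-activating enzyme gene Uba1y (5.75-fold) and the lysosomal mannosidase gene Manba (5.64-fold). Cabp4, which encodes a calcium-binding protein, lay under 5.56 on every wild-type array and was at least 3.95-fold higher in knockout cells. Of the 331 genes 37 had a wild-type mean under that level.

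The falls were steeper than the rises. Prss23, a serine protease gene, read 10.29, 9.72 and 10.17 in wild type and 4.10, 4.78 and 4.80 in knockout cells. Thbs1, which encodes the matrix glycoprotein thrombospondin-1, read 10.23, 9.43 and 9.72 against 5.53, 5.39 and 5.64, at least 18.5-fold lower. Slc25a24, a mitochondrial ATP-Mg/phosphate carrier gene, was 17.1-fold lower, the RNA-binding repressor gene Samd4 18.4-fold, Fndc3c1 20.3-fold and Tmcc3 16.3-fold. All 5 Tmcc3 probe sets and all 3 Prss23 probe sets were called lower.

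Naive pluripotency genes, which mark the state of the preimplantation epiblast, rose almost as a whole. Of 26 tested members of this list 23 rose, against 19.9% of all genes, 1 fell and 2 did not pass, and the median change was 1.04 beside 0.01 over all genes. Earlier results of these data already showed this direction, so it is no independent support for it.

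Transcription factors of the network were among the largest rises of the list. Tbx3 read 8.26, 8.25 and 8.38 in wild type and 11.01, 10.81 and 10.69 in knockout cells. Tfcp2l1, a grainyhead-like factor that binds many naive enhancers, was at 10.01 ± 0.11 (mean ± SD) against 12.08 ± 0.07. Esrrb, an orphan nuclear receptor, was at 10.34 ± 0.17 (mean ± SD) in wild type and 12.03 ± 0.04 in knockout cells. Every knockout array lay above every wild-type array in each of these genes. Prdm14, a PR-domain factor that keeps FGF signalling and DNA methylation low, went from 7.35, 7.98 and 7.55 to 9.43, 9.21 and 9.45 (3.33-fold). The Krüppel-like factor gene Klf4 went from 10.34, 10.49 and 10.35 to 11.71, 11.67 and 11.67 (2.44-fold), and Klf2 from 11.86, 11.89 and 11.79 to 13.05, 12.79 and 12.96 (2.12-fold). Their relative Klf5 changed by 0.17 and did not pass (limma adjusted p = 0.0774). Nanog rose from 12.39, 12.40 and 12.43 to 13.46, 13.45 and 13.28, and Nr0b1, which encodes the nuclear receptor Dax1, rose 2.58-fold.

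Members outside this core moved the same way. Tcl1, an Akt coactivator gene, rose 3.65-fold, the adhesion gene Jam2 3.58-fold in all 5 of its probe sets, and the Ets-family gene Spic 3.10-fold. Zfp57, which protects methylation at imprinted loci, went from 9.01, 9.31 and 9.23 to 10.47, 10.34 and 10.35. Zfp42, the classical stem cell marker Rex1, rose by 0.65. The exception was Dppa3 (Stella), a factor that protects the maternal genome from demethylation, at 9.70 ± 0.15 (mean ± SD) in wild type and 8.95 ± 0.06 in knockout cells (-0.76 ± 0.15, limma adjusted p = 0.00154).

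**Figure D2:**
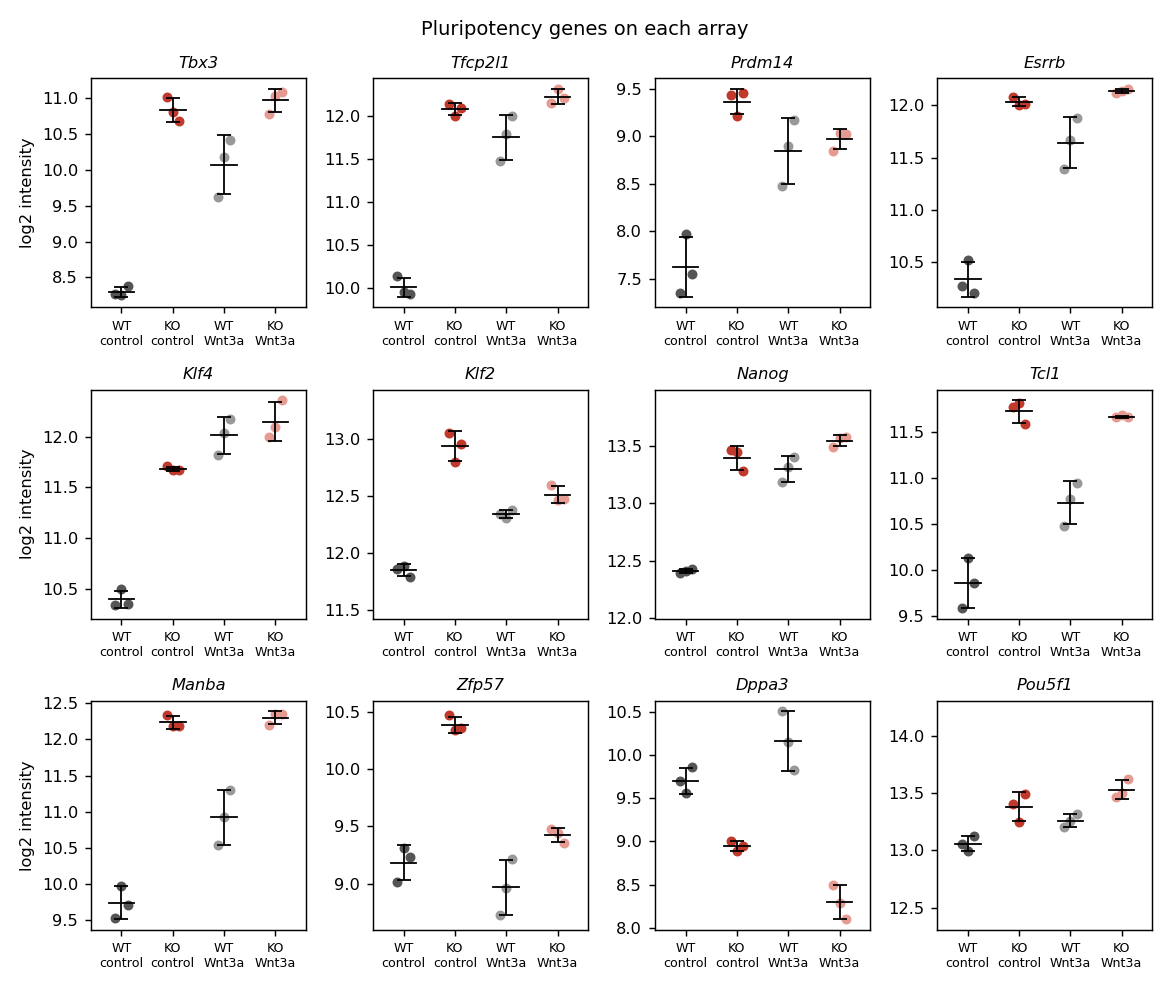
Log2 intensity of 12 pluripotency genes on each array, with genotype and medium along the horizontal axis and each gene on its own vertical scale; points are arrays, bars the mean and 1 SD (n = 3). In control medium the knockout arrays of 11 genes lie above all wild-type arrays, by 1.25-fold for Pou5f1 and 5.82-fold for Tbx3, and those of Dppa3 lie below.

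The core factors rose by less. Pou5f1 (Oct4) read 13.05, 12.99 and 13.13 in wild type and 13.40, 13.24 and 13.49 in knockout cells, a change of 0.32, and Sox2 changed by 0.35. The core list held 18 tested genes, of which 11 rose and 1 fell (median 0.31), beside 19.9% and 22.3% of all genes. Foxd3, a forkhead repressor needed for stem cell maintenance, led them at 0.89.

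Genes of the formative and primed epiblast, the stage that follows the naive state, moved the other way in part. Of 24 tested, 11 fell (22.3% of all genes did), 4 rose and 9 did not pass, with a median of -0.40. Pou3f1 (Oct6), a POU factor of the primed state, read 10.72, 10.57 and 10.70 in wild type and 7.41, 7.10 and 7.61 in knockout cells, a 9.77-fold difference. The SoxC factor gene Sox11 fell 4.14-fold in all 6 of its probe sets and Sox4 3.42-fold. Igfbp3, an IGF-binding protein gene, went from 10.84, 10.15 and 10.57 to 7.89, 7.58 and 7.91. Otx2, a driver of the primed state, changed by -0.46 and did not pass (limma adjusted p = 0.292). The Ets factor gene Etv4 rose by 1.09 and the zinc-finger gene Zic5 by 0.58.

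Family members and partners of Tcf7l1 changed little as a list. Of 19 Tcf/Lef factors, beta-catenin partners and corepressors, 3 rose and 6 fell, Tcf7l1 itself among them, with a median of -0.15. Over all genes 19.9% rose and 22.3% fell. Tcf7l2 read 7.63, 7.28 and 7.54 in wild type and 5.93, 5.99 and 5.71 in knockout cells, and 2 of its 4 probe sets were called lower. Tle5 (Aes), a short Groucho-family protein that opposes the longer ones, rose from 8.49, 8.76 and 8.63 to 9.63, 9.68 and 9.59. Hic1, a transcriptional repressor gene, changed by -0.19 and did not pass.

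Along the Wnt pathway the members moved both ways. Of 17 ligand and secretion genes 7 fell and 2 rose, beside 22.3% and 19.9% of all genes. Wls, the carrier that brings Wnt proteins to the cell surface, read 9.32, 7.88 and 8.34 in wild type and 5.67, 5.32 and 5.21 in knockout cells, at least 7.54-fold lower. Porcn, the acyltransferase that lipidates Wnt proteins, rose from 8.37, 8.12 and 8.29 to 9.76, 9.61 and 9.62. So the acyltransferase and the carrier of the same export route moved in opposite directions. Among receptors and inhibitors 11 of 29 fell and 4 rose, with Fzd2 5.04-fold and Fzd6 2.79-fold lower and Fzd5 2.24-fold higher (8.98, 9.53 and 9.19 against 10.38, 10.42 and 10.40). Direct Wnt targets fell in 6 of 22 cases, near the 22.3% of all genes, with a median of -0.06. Of these 22, 2 rose, and 1 with the replicate block or without wild-type array 3, knockout array 1 or knockout array 3.

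Genes of contractile actin fell widely. Of 43 tested genes of smooth muscle and the actin cytoskeleton 34 fell, 2 rose and 7 did not pass, beside 22.3% of all genes that fell and 19.9% that rose. The median change was -0.94. Acta2, smooth muscle alpha-actin, read 12.98, 12.16 and 12.67 in wild type and 8.31, 8.72 and 8.56 in knockout cells. Tagln, the actin-bundling protein transgelin, read 13.80, 13.17 and 13.58 against 8.08, 7.76 and 8.25. Skeletal alpha-actin (Acta1) read 12.29, 11.12 and 11.77 against 6.49, 6.97 and 7.29. All 3 genes were bright in wild type, and the knockout arrays lay more than 3 log2 units below the lowest wild-type array. The calponin gene Cnn1 (-4.48) and Cnn2 (-2.01) fell. Tropomyosins, which line actin filaments, fell too (Tpm1 at -3.22, in all 4 probe sets, and Tpm2 at -2.11), and the regulatory light chain gene Myl9 stood at -2.96. Caldesmon (Cald1, -2.78), the LIM protein gene Csrp1 (-2.53) and cardiac actin (Actc1, -2.72) fell as well. Focal adhesion genes followed, with zyxin (Zyx) 4.35-fold and vinculin (Vcl) 2.61-fold lower.

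The cytoplasmic actin gene Actb read 14.70, 14.66 and 14.70 in wild type and 14.58, 14.55 and 14.55 in knockout cells, a change of -0.13 that did not pass (limma adjusted p = 0.0578). It passed as lower with the stricter filter (adjusted p = 0.0341), repeated quantile normalization (0.0293) or the trended prior (0.000375). Its second probe set, which changed by 0.39 the other way, was called higher. Lima1 (Eplin), an actin crosslinker of epithelia, rose from 8.78, 8.67 and 8.64 to 9.76, 9.77 and 9.76.

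Many genes of contractile actin are known targets of serum response factor (SRF), which binds the CArG box, CC and GG around 6 bases of A or T. The promoters from 250 bases before to 50 after each annotated start were taken from RefSeq (GRCm38.p6), and the motif reads the same on both strands. A CArG box stood in the promoters of 10 of 37 members of the list with a promoter (27%), against 1.59% of 11071 tested genes and 1.81% of all 27025 genes with promoters. Known SRF targets are in this list, so its share describes how the list was drawn up as much as these data. Among genes that fell at least 2-fold it stood in 18 of 461 (3.9%), and among those that rose at least 2-fold in 2 of 250 (0.8%). The 18 include Acta1, Myl9, Actc1, Cnn2, Fhl2 and Vcl of the list and the 2 include Lima1, so these shares are not separate from the list. Of the 10 list members with the box, 9 fell and Lima1 rose. The upstream 250 bases of 5 of them are shown, chosen for falls of different size, in lower case with the CArG box in capitals.
Acta1 promoter, chr8:123894776-123895025, minus strand: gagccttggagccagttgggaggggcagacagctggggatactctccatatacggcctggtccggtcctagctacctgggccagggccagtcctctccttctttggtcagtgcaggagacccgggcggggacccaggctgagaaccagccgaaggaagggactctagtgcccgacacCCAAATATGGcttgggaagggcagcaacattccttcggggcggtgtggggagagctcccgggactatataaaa
Myl9 promoter, chr2:156775214-156775463, plus strand: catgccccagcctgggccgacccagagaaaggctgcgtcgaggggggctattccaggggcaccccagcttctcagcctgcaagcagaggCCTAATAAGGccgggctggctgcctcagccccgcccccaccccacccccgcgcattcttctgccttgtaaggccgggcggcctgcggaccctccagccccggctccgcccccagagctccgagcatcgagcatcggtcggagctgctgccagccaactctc
Actc1 promoter, chr2:114052876-114053125, minus strand: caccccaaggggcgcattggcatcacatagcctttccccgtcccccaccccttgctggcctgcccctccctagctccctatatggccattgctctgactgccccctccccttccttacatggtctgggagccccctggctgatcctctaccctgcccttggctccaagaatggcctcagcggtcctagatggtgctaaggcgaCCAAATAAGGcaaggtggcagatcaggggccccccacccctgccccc
Cnn2 promoter, chr10:79988350-79988599, plus strand: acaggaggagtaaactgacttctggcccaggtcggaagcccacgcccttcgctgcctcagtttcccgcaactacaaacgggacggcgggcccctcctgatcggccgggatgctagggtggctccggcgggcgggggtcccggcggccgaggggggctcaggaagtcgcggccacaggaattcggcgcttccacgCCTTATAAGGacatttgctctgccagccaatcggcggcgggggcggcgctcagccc
Vcl promoter, chr14:20929148-20929397, plus strand: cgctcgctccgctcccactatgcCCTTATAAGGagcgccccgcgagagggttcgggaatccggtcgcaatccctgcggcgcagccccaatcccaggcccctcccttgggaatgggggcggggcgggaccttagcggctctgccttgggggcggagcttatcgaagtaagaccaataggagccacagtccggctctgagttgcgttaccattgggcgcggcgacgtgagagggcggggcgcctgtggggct

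The box began 73 bases before the start in Acta1, 47 in Actc1, 56 in Cnn2, 161 in Myl9 and 227 in Vcl. The level of Myl9 was 10.15 ± 0.12 (mean ± SD) in wild type and 7.20 ± 0.32 in knockout cells. Cnn2 read 12.70, 12.34 and 12.63 against 10.62, 10.48 and 10.52. Vcl read 12.20, 11.77 and 11.92 against 10.69, 10.46 and 10.59. A match is a description of these letters, and no binding was measured.

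SRF itself and most immediate-early genes fell. Srf read 9.76, 9.62 and 9.76 in wild type and 9.26, 9.09 and 9.24 in knockout cells (-0.51). Of 19 SRF regulators and immediate-early genes 12 fell and 1 rose, beside 22.3% and 19.9% of all genes. Jun, an AP-1 subunit gene, read 9.99, 9.48 and 9.78 against 6.52, 6.49 and 6.76, which is 8.93-fold lower. The AP-1 relatives Fosl1 and Atf3 fell by 1.35 and 1.65. The member that rose was Egr1, a zinc-finger factor gene that ERK signalling induces, from 9.92, 10.12 and 10.04 to 11.51, 11.41 and 11.50.

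Keratins and desmosomal genes, which build the intermediate filaments of simple epithelia and their anchors, formed the list with the lowest median, -1.12. Of 18 tested 13 fell, beside 22.3% of all genes. Krt8 was at 13.66 ± 0.34 (mean ± SD) in wild type and 9.22 ± 0.38 in knockout cells, and its filament partner Krt18 read 13.93, 13.15 and 13.58 against 8.29, 9.13 and 8.62. Krt19 went from 11.50, 10.69 and 11.04 to 6.65, 6.65 and 6.68. No knockout array of these genes came near a wild-type array. Desmoplakin (Dsp), which links keratin to desmosomes, fell from 11.71, 10.79 and 11.23 to 8.59, 8.50 and 8.47. The desmocollin gene Dsc2 (-2.40) and the desmosome-associated p53 target Perp (-2.19) fell. Krt80 and Evpl did not pass, at -0.15 and -0.13.

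Tight junction and epithelial genes fell in 25 of 32 cases and rose in 4, beside 22.3% and 19.9% of all genes, with a median of -0.72. The claudin gene Cldn7 read 11.39, 10.70 and 11.14 in wild type and 7.58, 7.85 and 7.76 in knockout cells. Marveld3 and Marveld2, tight junction proteins of the occludin family, were at least 5.18-fold and 4.53-fold lower, and occludin (Ocln) was 2.35-fold lower. E-cadherin (Cdh1), the main adhesion molecule of stem cell colonies, read 12.79, 12.69 and 12.73 in wild type and changed by -0.74 ± 0.09 SE, with no overlap.

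**Figure D3:**
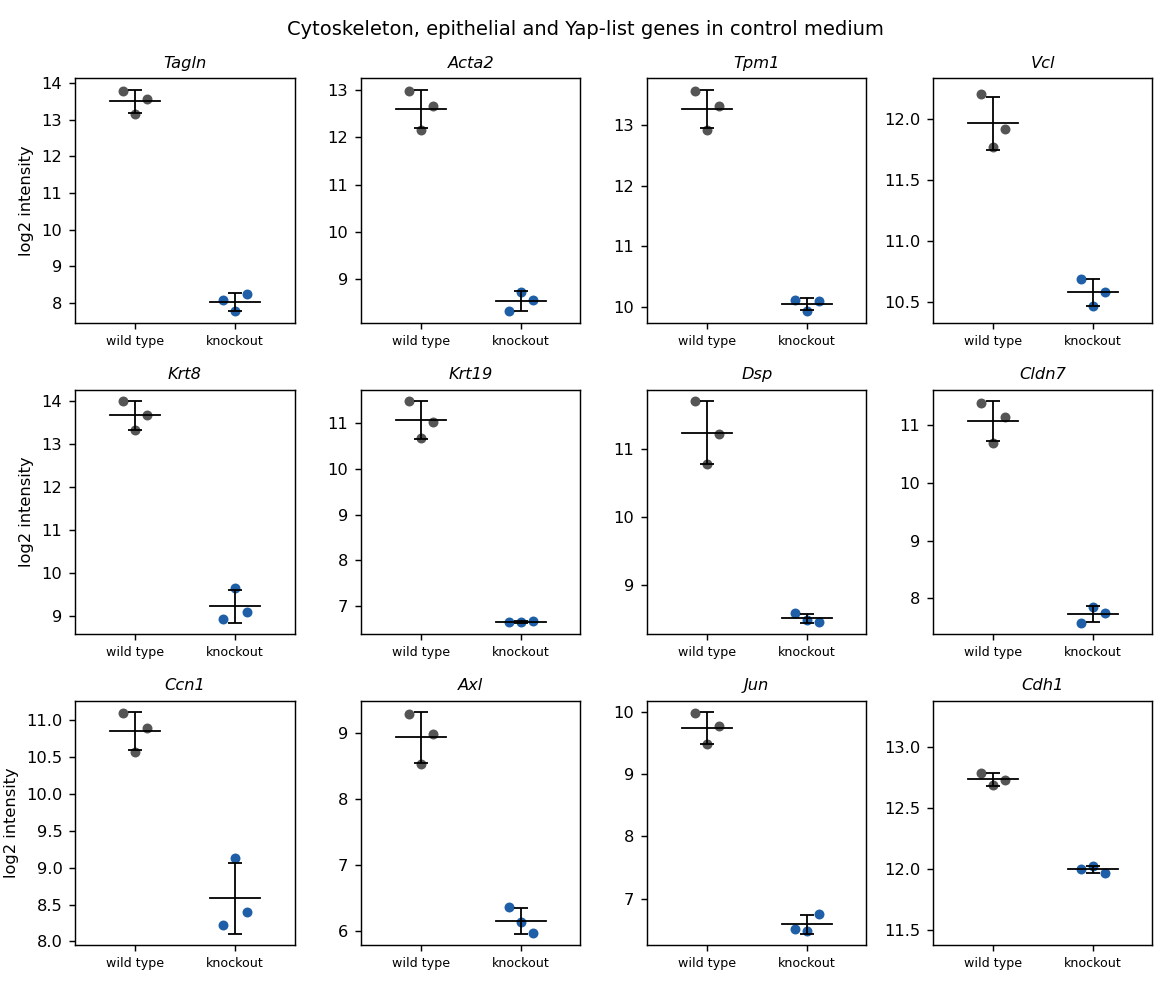
Log2 intensity of 12 genes of the cytoskeleton, epithelia and the Yap list on each control-medium array of wild-type (grey) and knockout cells (blue), each gene on its own vertical scale; points are arrays, bars the mean and 1 SD (n = 3). No gene shown has a knockout array above a wild-type array, and wild-type array 2 is the lowest wild-type array for each of the 12 genes.

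The list of Yap targets and caveolae had no member that rose. Yap and Taz are coactivators that bind TEAD factors when cells are spread or under tension, and caveolae are membrane pits of flat cells. Of 26 tested 24 fell, beside 22.3% of all genes, and 2 did not pass, with a median of -0.66. Ccn1 (Cyr61), a secreted matrix protein and classical Yap target, was at 10.85 ± 0.26 (mean ± SD) against 8.58 ± 0.48. Ccn2 (Ctgf) read 12.21, 12.02 and 12.09 against 10.55, 10.27 and 10.52. The receptor tyrosine kinase gene Axl was at 8.94 ± 0.39 (mean ± SD) against 6.15 ± 0.20. Ankrd1 read 7.45, 6.59 and 6.97 against 5.17, 6.54 and 5.32, with knockout array 2 just under the lowest wild-type array. The tissue factor gene F3 and the caveolin gene Cav1 (-2.59 each) and the angiomotin gene Amotl1 (-2.09) fell. The coactivators themselves fell by less, Yap1 by 0.45 and Taz (Wwtr1) by 0.62, and Tead1 and Tead3 by 0.66 and 0.65.

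TEAD factors are known to bind the letters GGAATG, searched here on both strands in the same promoters. They stood in 13 of 20 members of the list with a promoter (65%), against 14.6% of tested genes, 19.7% of genes that fell at least 2-fold and 17.6% of those that rose at least 2-fold. The list contains known Yap targets, so this share describes how the list was drawn up as much as these data. The upstream 250 bases of 3 members are shown because their values are given above, with the match in capitals (CATTCC where it lies on the opposite strand).
Ccn1 promoter, chr3:145649986-145650235, minus strand: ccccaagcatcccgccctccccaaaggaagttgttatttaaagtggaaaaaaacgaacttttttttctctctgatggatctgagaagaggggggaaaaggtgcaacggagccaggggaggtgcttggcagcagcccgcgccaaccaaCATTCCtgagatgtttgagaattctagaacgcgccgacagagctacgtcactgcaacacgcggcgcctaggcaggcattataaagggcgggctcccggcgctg
Axl promoter, chr7:25788734-25788983, minus strand: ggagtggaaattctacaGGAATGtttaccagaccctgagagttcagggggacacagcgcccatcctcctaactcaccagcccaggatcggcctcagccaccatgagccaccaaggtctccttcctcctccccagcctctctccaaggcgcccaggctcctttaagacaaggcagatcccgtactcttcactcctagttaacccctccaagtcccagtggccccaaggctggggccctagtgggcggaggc
Ankrd1 promoter, chr19:36119845-36120094, minus strand: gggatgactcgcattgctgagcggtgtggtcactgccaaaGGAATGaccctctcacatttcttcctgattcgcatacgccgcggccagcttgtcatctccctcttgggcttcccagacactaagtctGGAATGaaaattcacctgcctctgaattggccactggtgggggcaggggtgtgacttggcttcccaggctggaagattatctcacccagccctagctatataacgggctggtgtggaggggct

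The match began 103 bases before the start in Ccn1 and 233 in Axl, and Ankrd1 held matches at 210 and 123 bases. For Tcf/Lef factors the letters CTTTGAT were searched in the same way, and they stood in 1 of 16 naive genes with a promoter (6.25%, Mkrn1) against 3.26% of tested genes. That no match lies in these windows says nothing of sites elsewhere, and no naive promoter is printed.

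Matrix and adhesion genes beyond this were mixed. Of 35 integrin, laminin and collagen genes 13 fell, beside 22.3% of all genes, and 7 rose, near the 19.9% of all genes. Itgb1, the shared beta subunit of many matrix receptors, went from 11.39, 11.15 and 11.22 to 10.09, 10.22 and 10.00, and Itga8 fell by 1.88. The laminin gene Lama1 rose, at 7.91, 8.08 and 7.43 against 8.41, 10.23 and 8.88, with knockout array 2 standing above the others, and the change of 1.37 was 0.84 without it. Annexins and S100 proteins, which bind calcium at membranes, fell in 10 of 21 cases and rose in 3, beside the same shares. Anxa3 read 12.40, 11.57 and 11.96 in wild type and 8.26, 8.33 and 8.15 in knockout cells (13.3-fold lower), whereas the galectin gene Lgals3 rose 2.28-fold.

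Signalling genes moved in both directions, and their counts stand beside 22.3% of all genes that fell and 19.9% that rose. Of 26 FGF and ERK genes 11 fell and 4 rose. Feedback inhibitors of ERK did not move as one, since the phosphatase gene Dusp4 went from 9.91, 9.29 and 9.62 to 7.09, 7.26 and 6.98 while Spry4 went from 9.33, 9.64 and 9.45 to 10.43, 10.73 and 10.58. Fgfr2 fell 2.23-fold. Among 9 EGF-family genes the ligands Hbegf (-1.47) and Tgfa (-1.32) fell together with the receptor inhibitor gene Errfi1 (-1.83). The inhibitor of differentiation Id2, a BMP target, read 11.65, 11.54 and 11.58 in wild type and 8.78, 8.55 and 8.83 in knockout cells, and 15 of 25 BMP genes fell. Within the Nodal and Activin list the inhibin subunit gene Inhbb rose from 8.04, 8.97 and 8.15 to 10.18, 10.12 and 10.21, while the antagonist gene Lefty1 fell, at 11.61 ± 0.04 (mean ± SD) against 10.40 ± 0.20.

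In the Lif pathway, which supports self-renewal, 5 of 17 genes rose and 5 fell, beside 19.9% and 22.3% of all genes. The receptor gene Lifr rose by 0.67, Stat3 by 0.43 and the feedback inhibitor gene Socs3 by 0.58. The ligand gene Lif fell by 1.12 and the kinase gene Pim2 by 1.68. Notch genes fell in 9 of 20 cases, led by Hes6 (-1.67), while Notch4 rose by 1.28 in 1 of its 3 probe sets. The Hedgehog effectors moved apart, Gli3 at 9.33 ± 0.44 (mean ± SD) against 7.74 ± 0.11 and Gli2 from 9.80, 10.11 and 9.81 to 10.84, 10.76 and 10.87. Among guidance molecules the ligand gene Ntn1 rose from 8.97, 8.84 and 8.73 to 10.95, 10.60 and 10.98, and its receptor gene Unc5b fell from 9.85, 9.31 and 9.55 to 7.92, 8.12 and 7.93. The semaphorin genes Sema3c (at least 6.53-fold) and Sema3e (5.34-fold) were lower. The retinol dehydrogenase gene Rdh10, the first step of retinoic acid synthesis, was 4.72-fold lower, and the receptor gene Rara rose by 0.65.

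Interferon-inducible genes split into groups. Of 33 tested 18 fell and 8 rose, beside 22.3% and 19.9% of all genes. The guanylate-binding protein genes fell furthest, with Gbp2b at 10.90, 9.51 and 10.22 in wild type and 4.85, 5.04 and 5.51 in knockout cells, and Gbp2 at 9.69, 8.47 and 9.11 against 5.07, 4.71 and 5.13. Genes of antigen presentation by MHC class I fell too. The light chain gene B2m read 11.09, 10.32 and 10.71 against 8.26, 9.33 and 8.55, the heavy chain gene H2-K1 fell 2.64-fold and the immunoproteasome gene Psmb8 at least 2.86-fold. Other interferon-inducible genes rose. Xaf1 read 6.71, 6.37 and 6.31 against 9.55, 9.02 and 8.76, the gene of the RNA sensor RIG-I, Ddx58, 9.39, 9.46 and 9.38 against 11.26, 11.27 and 11.25, and Oas1a rose 3.35-fold.

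Enzymes of DNA methylation and demethylation moved in both directions. The de novo methyltransferase gene Dnmt3b read 13.06, 13.04 and 13.10 in wild type and 12.19, 12.16 and 12.33 in knockout cells. Its catalytically inactive partner Dnmt3l rose from 12.30, 12.77 and 12.70 to 13.34, 13.27 and 13.20. The dioxygenase gene Tet2 rose from 8.91, 9.19 and 8.95 to 10.45, 10.58 and 10.26. Tet1 rose by 0.64, and Gadd45g fell 4.85-fold. Of 33 Polycomb and chromatin genes 13 rose and 5 fell, beside 19.9% and 22.3% of all genes. These changes reached up to 0.97 for the H3K9 demethylase gene Kdm3a, and the PRC2 genes Ezh2, Eed and Suz12 rose by 0.34, 0.43 and 0.32.

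Imprinted genes fell in 12 and rose in 6 of 25 cases, beside 22.3% and 19.9% of all genes. At the Dlk1-Meg3 domain of chromosome 12 the maternally expressed noncoding RNA genes rose. Meg3 read 12.21, 12.19 and 12.22 in wild type and 12.86, 12.89 and 12.88 in knockout cells, and 10 of its 11 probe sets were called higher. Mirg rose by 1.09 and Rian by 1.05, the latter with wild-type array 2 far below the others (12.33, 10.94 and 12.26). The value without that array was 0.60. The paternally expressed Dlk1 of the same domain stood at -0.47, and its call was lost with the replicate block (limma adjusted p = 0.0548) and without any one of 5 of the 6 arrays (adjusted p 0.0573 to 0.116). On chromosome 7 the growth factor gene Igf2 went from 10.60, 9.61 and 10.08 to 7.09, 7.38 and 7.38, and the CDK inhibitor gene Cdkn1c from 9.71, 10.13 and 9.86 to 7.33, 7.25 and 7.72.

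Calls lay on every autosome and X, though not evenly. The share of tested genes that rose ran from 14.1% on chromosome 8 to 24.7% on chromosome 17. The share that fell ran from 19.2% on chromosome 16 to 29.7% on chromosome 1. Over all genes these shares were 19.9% and 22.3%. The median change per autosome and X lay between -0.04 (chromosome 1) and 0.04 (chromosome 17). Of the 8 tested genes on the Y chromosome 4 rose and none fell. Uba1y read 6.81, 7.14 and 7.02 in wild type and 9.65, 9.47 and 9.42 in knockout cells, and Uty rose by 0.89 and Eif2s3y by 0.29. The probe sets of these 3 genes that were read lay above 5.56 in both genotypes, while all 3 probe sets of the Y-linked Kdm5d lay under it on all 6 arrays. Xist, the noncoding RNA of X inactivation, read 8.29, 8.59 and 8.52 in wild type and 9.22, 9.20 and 9.19 in knockout cells (0.74, limma adjusted p = 0.000138), and its other 2 probe sets lay under 5.56.

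**Figure D4:**
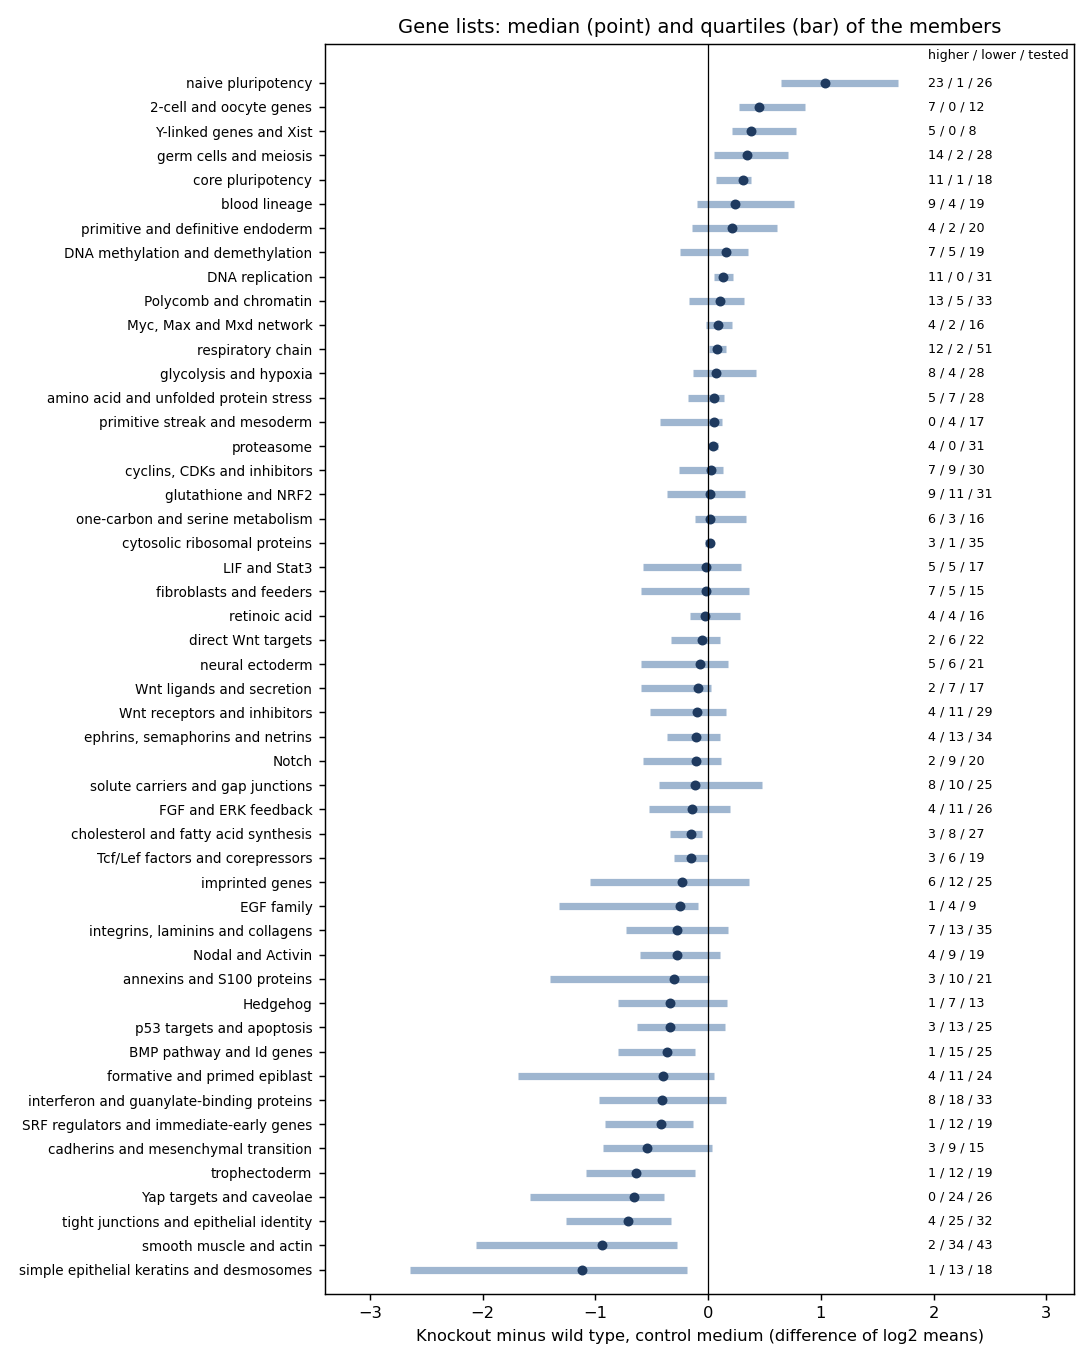
Median (point) and quartiles (bar) of the knockout minus wild-type change in control medium for the tested members of 50 gene lists, with the number that rose, fell and were tested at the right. Naive pluripotency stands highest at 1.04, keratins and desmosomes lowest at -1.12, and lists such as ribosomal proteins and proteasome lie close to 0.

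Germ cell and oocyte genes rose more often than they fell. Of 28 germ cell and meiosis genes 14 rose and 2 fell, beside 19.9% of all genes that rose and 22.3% that fell, with a median of 0.34. Dazl, an RNA-binding protein of germ cells, read 6.58, 7.07 and 6.71 in wild type and 9.17, 8.83 and 8.80 in knockout cells. The meiotic chromosome gene Hormad1 read 6.23, 6.76 and 6.40 against 8.66, 8.76 and 8.63, and the egg coat gene Zp3 7.55, 7.92 and 7.81 against 9.99, 9.77 and 10.15. Of 12 oocyte and 2-cell genes 7 rose and none fell, led by Timm8a2, the NLR gene Nlrp4f (6.55-fold) and Ooep, a subcortical maternal complex gene (2.88-fold).

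Of 19 blood-lineage genes 9 rose and 4 fell, beside 19.9% and 22.3% of all genes. The myosin gene Myo1f read 6.83, 7.39 and 6.90 in wild type and 9.79, 9.40 and 9.82 in knockout cells. The metal transporter gene Slc11a1 read 6.59, 6.62 and 6.59 against 9.22, 9.28 and 8.87. Rcsd1, an actin-capping regulator, rose in 1 of 4 probe sets, Laptm5 rose 3.36-fold and the phosphatase gene Inpp5d 2.08-fold. The defining marker Ptprc (CD45) lay under 5.56 on all 6 arrays, and the summed intensity of 5 blood markers was 365 to 403 in wild type and 368 to 375 in knockout cells.

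Markers of other cell types were read from lists of defining genes. The 10 stem cell markers summed to between 81645 and 87113 in wild type and between 104517 and 106556 in knockout cells, and none lay under 5.56 on all 6 arrays. The 9 trophectoderm markers summed to between 3206 and 3781 against 2424 and 2563, and Elf5 lay under 5.56 on all 6. Of the 9, 4 fell and none rose, beside 22.3% and 19.9% of all genes. The keratin gene Krt7 fell furthest (9.85, 8.88 and 9.35 against 6.09, 6.13 and 5.97). Eomes lay the other way (7.75, 7.63 and 7.80 against 8.24, 7.85 and 8.27) and did not pass. In the longer trophectoderm list 12 of 19 genes fell and 1 rose, with Cdx2 at 8.10, 7.43 and 7.70 against 6.83, 6.43 and 6.94 and Gata3 at least 1.80-fold lower. Of the 14 fibroblast and feeder markers, Col3a1, Lum and Prrx1 lay under 5.56 on all 6 arrays. Of the 14, 5 rose and 4 fell, beside 19.9% and 22.3% of all genes. Their sums were 6997 to 9594 in wild type and 9865 to 10497 in knockout cells. Vim (11.95, 11.58 and 11.82 against 12.21, 12.13 and 12.17) and Fn1 were by far the brightest, so the sums rest mostly on them. On every knockout array Col1a1, Col1a2, Col3a1, Dcn, Twist1 and S100a4 lay below all wild-type arrays, and Thy1, Vim, Pdgfra and Pdgfrb lay above. Over all tested genes 28.1% lay below in this way and 26.0% above. Col3a1 was under 5.56 throughout, so its order carries little weight. Knockout array 1 read 5.98 for Pdgfra, just above the highest wild-type array (5.95). Array 2 was highest for Pdgfra and array 3 followed (7.02), the order of the endoderm genes described next.

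The endoderm markers set 1 knockout array apart. The 8 markers summed to between 797 and 991 in wild type, and to between 637 and 2413 in knockout cells. The transcription factor gene Sox17 read 5.83, 5.76 and 5.05 in wild type and 5.48, 8.30 and 6.78 in knockout cells, and Gata6 read 6.54, 6.21 and 6.36 against 6.27, 7.95 and 7.19. Cubn, an endocytic receptor of visceral endoderm, read 6.14, 6.23 and 5.70 against 6.56, 9.85 and 8.24. In all 3 genes knockout array 2 was highest, array 3 followed and array 1 was close to wild type. Sox17 and Gata6 did not pass (limma adjusted p = 0.055 and 0.0564). Of 20 endoderm genes 4 rose, near the 19.9% of all genes, and 2 fell, beside 22.3% of all genes. Without knockout array 1 the rises numbered 11 in this list and 2247 over all genes, instead of 2743. Sox17 (2.00, limma adjusted p = 0.00155) and Gata6 (1.20) passed in that fit. Without knockout array 2 3 genes rose and 5 fell, the list median was 0.07 instead of 0.21, and Sox17 (0.59, adjusted p = 0.194) and Gata6 (0.36, adjusted p = 0.217) did not pass. Sox17 also passed with median centring or the replicate block, and Gata6 with median centring. Cubn rose by 2.19 with all arrays, and the value was 3.02 without knockout array 1 and 1.37 without array 2.

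Growth and metabolism moved little. Ribosomal protein genes had a median of 0.01, with 3 of 35 higher and 1 lower, and proteasome genes 0.04, with 4 of 31 higher, all shares under those of all genes (19.9% higher, 22.3% lower). DNA replication genes rose in 11 of 31 cases and none fell, by up to 1.11 for the polymerase gene Pola1. Among 30 cyclins, CDKs and inhibitors the CDK inhibitor gene Cdkn2b fell 3.26-fold and Cdk6 2.21-fold, while the cyclin gene Ccnd2 rose by 0.83. Genes of apoptosis fell in 13 of 25 cases and rose in 3, among them the initiator caspase gene Casp8 (3.90-fold lower) and the BH3 gene Bcl2l11 (2.98-fold lower). In glycolysis the phosphofructokinase gene Pfkp rose from 10.06, 10.09 and 9.99 to 12.11, 12.23 and 12.21, and the regulatory Pfkfb3 fell by 2.02. Respiratory chain genes rose in 12 of 51 cases, near the 19.9% of all genes, by at most 0.32, and in 19 with the mean of all probe sets or 21 with the trended prior. Cholesterol and fatty acid genes fell in 8 and rose in 3 of 27 cases, with the sterol isomerase gene Ebp up 2.39-fold. The iron exporter gene Slc40a1 fell 6.76-fold.

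The same genotypes in Wnt3a medium share no array with this comparison. In that medium knockout cells had higher values for 13.2% of genes and lower values for 14.7%. Of the 331 genes at least 2-fold higher in control medium 270 were also called higher with Wnt3a, with median changes of 1.32 and 0.76. Of the 585 at least 2-fold lower 533 were also called lower, at -1.50 and -0.97, and none of either set was called the other way. Both sets were chosen by their size in control medium, which by itself tends to make the median there the larger one. Across the 13811 genes, which are not independent replicates, the changes in the 2 media correlated with Pearson's r = 0.866 and Spearman's rho = 0.731. Arrays of the 2 media also differ in spiked controls without overlap. The control dap read 4.19 to 4.32 on the control-medium arrays and 10.85 to 11.08 on the Wnt3a arrays. Wnt3a and a difference in sample processing between the media therefore cannot be told apart, and the part of either in these values was not tested.

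**Figure D5:**
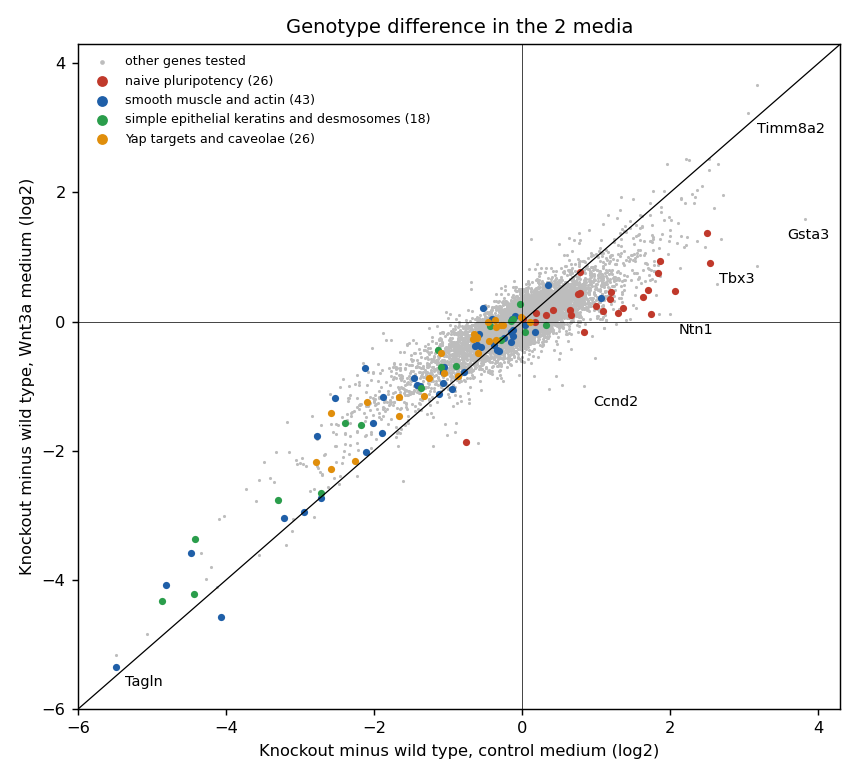
Knockout minus wild-type change of each tested gene on the log2 scale in control medium (horizontal axis) and Wnt3a medium (vertical axis), 3 arrays per genotype and medium; the diagonal marks equal changes. Most naive genes lie right of the vertical line and under the diagonal, most actin, keratin and Yap-list genes lie left of it at negative values in both media, and Ntn1 (2.00 and 0.12) and Ccnd2 (0.83, and negative with Wnt3a) lie far from it.

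The gap between genotypes in naive genes was smaller with Wnt3a. The difference of the 2 effects (interaction) passed for 4.08% of all genes and, as a smaller effect with Wnt3a, for 17 of the 26 naive genes. Leaving out array 3 of wild type in control medium or array 2 of wild type with Wnt3a made it 10. Leaving out array 1 of either genotype in control medium or array 2 of the knockout with Wnt3a made it 11. The count over all genes depends on single arrays too, so interactions are named only for 16 genes chosen after their values were seen, whose call held without each of the 12 arrays in turn. The genotype difference of Tbx3 was 2.54 without and 0.90 with Wnt3a, that of Tfcp2l1 2.07 and 0.47, and that of Esrrb 1.70 and 0.49. Ntn1 differed by 2.00 and 0.12, the receptor gene Kit by 1.45 and 0.04, and Porcn by 1.40 and 0.03. On the falling side the focal adhesion gene Zyx differed by -2.12 and -0.71 and the hyaluronan receptor gene Cd44 by -2.15 and -0.64. Tagln (-5.49 and -5.35), Acta2 (-4.08 and -4.57) and Timm8a2 (3.05 and 3.22) had effects of similar size, and their interactions did not pass (limma adjusted p = 0.838, 0.324 and 0.800).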

How the data were processed

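RNA of 12 samples was measured on Affymetrix arrays with 45101 probe sets. The authors deposited linear intensity values made with RMA, per the submitters' processing notes, which give no version. RMA models each probe set over all arrays and equalises their distributions, so a shift shared by all genes would not be seen. Intensities were taken to log2 with no pseudocount. Probe sets were named through the platform annotation (932 with several symbols and 9160 without one were set aside from the gene table). A gene was read from its brightest single-symbol probe set and kept with at least 3 of 12 arrays above the 40th percentile (intensity 47.2).

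Linear models were fitted with lmFit and eBayes of limma 3.58.1 under R 4.3.3 over all 4 groups, with Benjamini-Hochberg adjustment over 13811 genes. On simulated data 57 of 100 changes of 0.5 and 99 of 100 of 1 (log2) were recovered with 11 false calls. Same-numbered replicates did not deviate together, so no block was used.

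Members and lists were chosen with earlier results of these data known. Genes were named as the 15 largest rises and falls (those described), up to 6 called and 3 not passing per list by size, Tcf7l1 with its neighbours and a fixed set of pluripotency, Wnt and control genes, and the 8 largest interactions. Outside that rule, and chosen after their values were seen, are Actc1, Ankrd1, Cald1, Cdh1, Cnn2, Csrp1, Dlk1, Dppa3, Etv4, Ezh2, H2-K1, Itgb1, Klf2, Lgals3, Lima1, Meg3, Mkrn1, Nr0b1, Oas1a, Ocln, Psmb8, Rian, Socs3, Spic, Srf, Stat3, Suz12, Tead1, Tead3, Tpm2, Vcl, Wwtr1, Yap1, Zfp42, Zfp57, Zic5, Zyx, Kdm5d and the 16 interactions that held without each array.

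Alternatives changed the probe set rule, filter, scaling, prior, block and arrays.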

Additional observations from a re-analysis of the deposited data

Results flagged for a closer look

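The interaction passed for 563 of 13811 genes (4.08%). Of these, 16 are given here, chosen after their values were seen and because their call held without each array in turn. Arrays of the 2 media also differ in spiked controls, so Wnt3a and sample processing cannot be told apart. Given is the genotype difference with Wnt3a minus that in control medium on the log2 scale, tested in limma with 3 arrays per group. Among naive pluripotency genes it was -1.64 for Tbx3, -1.60 for Tfcp2l1, -1.61 for Prdm14, -1.20 for Esrrb, -1.15 for Klf4, -0.92 for Klf2, -0.74 for Nanog, -1.09 for Jam2 and -1.25 for Spic. The adjusted p of these 9 genes ran from 0.00106 to 0.00852. Among other genes that were higher in knockout cells it was -2.23 for Gsta3, -1.88 for Ntn1, -1.84 for Ccnd2, -1.41 for Kit and -1.37 for Porcn. For Cd44 and Zyx, which were lower in knockout cells, it was 1.51 and 1.41. Ccnd2 was higher in knockout cells without Wnt3a (0.83) and lower with it.

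Probe sets without a single gene symbol were used in no comparison above. Of 3980 tested, 64 rose and 63 fell at least 2-fold in control medium.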

How the results depend on the processing

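Counts of genes that rose or fell stayed within 1.5 times of those reported except when each probe set was tested by itself, which gave 4681 higher, 4881 lower, 956 at least 2-fold lower and 1015 interactions, over more features. The replicate numbers did not pair the samples (same-numbered correlations -0.24, -0.25 and 0.09). With the replicate block 2461 genes were higher and 2813 lower, and interactions numbered 209 instead of 563. Leaving out 1 array at a time gave 151 (without wild-type control array 3) to 932 interactions (without wild-type control array 2), and the cause was not tested. Of the 916 genes changed at least 2-fold, at least 909 kept their call in each fit that tested them all. Actb turned from -0.13 to 0.13 with the mean of all its probe sets, since they differ in sign. Signal over background limits genes whose lower group mean lies under the filter level.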
